A study of Mus musculus with 12 samples.

Results

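Regulatory T cells (Treg cells) that carry a Foxp3-driven deletion of Batf were compared with wild-type Treg cells in the state in which they were sorted, without stimulation. The comparison covers every gene with at least 1 RPKM in 3 or more of the 6 unstimulated libraries, which is 9895 of the 24394 genes kept from the table (RPKM is the reads of a gene for its exon length and for the reads assigned to all genes). The tested cells have the genotype Foxp3CreBatffl/fl and are called KO here (3 libraries), and their counterparts are WT (3 libraries). All come from C57BL/6 mice of 7 weeks. The same genotypes were also profiled, with 3 libraries each, after 48 h with antibodies to CD3 and CD28 (5 µg/ml) and IL-2 (200 U/ml), and these 6 libraries enter the fit and the comparison of states below.

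In the KO cells Cre recombinase is expressed from Foxp3, so that the loxP-flanked Batf alleles are cut in cells that express or have expressed Foxp3, the defining transcription factor of the Treg lineage. Foxp3 is X-linked, and the labels do not give the number of Cre alleles. BATF is a basic leucine zipper protein of the AP-1 family that has no transactivation domain of its own and binds DNA as a heterodimer with JUN proteins, alone at AP-1 motifs or together with IRF4 or IRF8 at composite elements. In CD4 T cells it is known for its part in Th17 and T follicular helper differentiation and, in Treg cells, for the effector and tissue-resident programmes that bring chemokine receptors, integrins and suppressive receptors with them. Naive-like (central) Treg cells recirculate through lymphoid organs under the control of CCR7 and KLF2, and effector Treg cells lose these and enter tissues.

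Between 22731823 and 26439126 reads were assigned to genes in KO libraries and between 23154208 and 26860948 in WT libraries. The labels do not tie the libraries of a group to separate animals, and p-values therefore rest on a spread between libraries that may be technical. Y-linked transcripts were present in WT libraries 1 and 2 and absent from all KO libraries and WT library 3 (Eif2s3y at most 0.0718 RPKM there, against 50.3 and 57.7 RPKM), so the count of called genes and the counts of the gene lists at rest were also obtained without the WT libraries that hold them and their stimulated counterparts. The median gene had an SD on the log2(RPKM + 1) scale of 0.138 over the KO libraries and 0.0904 over the WT libraries, and 68.4% of genes varied more among KO libraries. The first principal component of the 6 libraries (49.9% of the variance) placed KO libraries at 9.04 to 17.2 and WT libraries at -15.2 to -12.6, and the second (18.6%) ran between KO library 1 at 16.1 and KO library 3 at -12.8.

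The targeted gene was lower in every KO library. Batf (chr12:85686720-85709087 in mm10, plus strand) was at 46.9, 33 and 25.9 RPKM in KO libraries 1 to 3, against 102.7, 93.3 and 90.0 RPKM in WT libraries 1 to 3. The groups did not overlap, and the KO library with the most Batf had less than any WT library. The difference was -1.45 on the log2 scale (SE 0.17, limma adjusted p = 0.000137), where all fold changes are KO minus WT on log2(RPKM + 1), which shrinks the changes of genes near 0. Batf values count every exon of the gene, and no source used here gives the exons that were removed. Exons still present could add to the KO values, which was not tested. In these bulk samples a lower value can mean fewer cells with the transcript or less of it per cell, and these cannot be told apart.

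At an adjusted p under 0.05, 1052 of the 9895 genes (10.6%) differed between KO and WT cells, 455 of them higher in KO (4.6%) and 597 lower (6.03%). Most of the differences were small. The log2 fold change of 709 called genes was smaller in size than that of a 1.5-fold change, the median was 0.44 among genes that rose and -0.50 among genes that fell, and it was -0.02 over all genes tested. At a log2 change of at least 1, 45 genes rose and 63 fell, and at 2 or more 1 rose and 12 fell. The genes that rose had a median level of 16.5 RPKM and those that fell 9.12 RPKM, beside 11.5 RPKM for all genes tested. With the libraries rescaled by the median ratio of their values, 619 genes rose and 525 fell, and the median change of all genes moved to 0.01. The groups of libraries did not overlap for 2788 genes (28.2%).

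**Figure D1:**
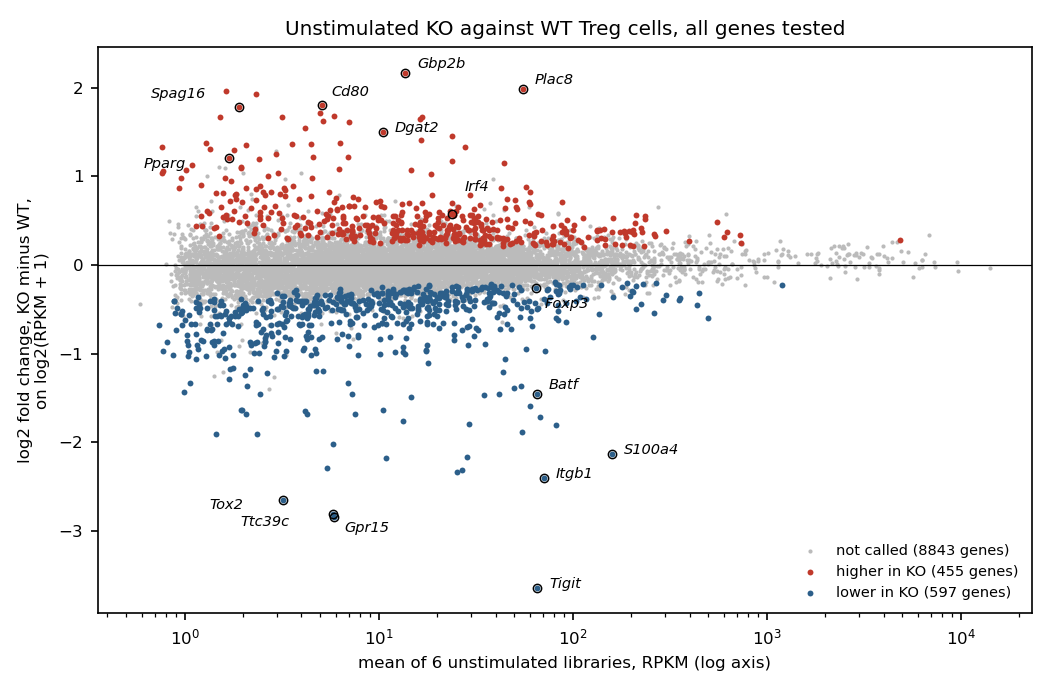
Mean level in the 6 unstimulated libraries (RPKM, log axis) against the log2 fold change of KO over WT on log2(RPKM + 1) for the 9895 genes tested; red points were higher and blue points lower in KO at a limma adjusted p under 0.05, grey points were not called, and open circles carry gene names. The falls reach further from 0 than the rises, with Tigit at -3.64 and Gbp2b at 2.17 as the extremes.

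The 15 largest falls and 15 largest rises were taken from called genes with a mean of at least 5 RPKM and no overlap between the groups. That KO and WT libraries stood apart in them was therefore required by the choice, and 28.2% of all genes tested did not overlap. The falls included those of surface receptors and integrin chains. Tigit, an inhibitory receptor that competes for CD155, was at 17.2, 6.85 and 5.58 RPKM in the KO libraries and at 119.7, 132.6 and 112.0 RPKM in the WT libraries. Every KO library was far below every WT library, and Tigit fell by 3.64 on the log2 scale (SE 0.27, limma adjusted p = 1.96e-06). Klrg1, an inhibitory lectin-like receptor of late effector cells, was at 14.7, 3.77 and 7.21 RPKM in KO and at 40.1, 46.7 and 39.8 RPKM in WT. The KO libraries spread widely, and Klrg1 fell by 2.34 on the log2 scale (SE 0.31, adjusted p = 0.000345).

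The chemoattractant receptors among these falls were Gpr15, which guides T cells to the large intestine, and Ccr4, which guides them to skin and lung. Gpr15 was at 1.52, 0.273 and 0.469 RPKM in KO and at 10.8, 9.37 and 12.3 RPKM in WT (log2 fold change -2.81, SE 0.22, limma adjusted p = 4.38e-06). Ccr4 was at 10.3, 6.19 and 8.70 RPKM in KO and at 44.3, 39.2 and 52.2 RPKM in WT (log2 fold change -2.31, SE 0.16, adjusted p = 1.75e-06). As the choice required, the highest KO library lay under the lowest WT library for both receptors.

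The integrin chains in this set behaved differently from each other across KO libraries. Itgb1, the beta 1 chain that pairs with many alpha chains, was at 21.2, 24.3 and 20.7 RPKM in KO and at 125.9, 108.1 and 127.3 RPKM in WT. It had tight groups and the smallest p of the genes named here (log2 fold change -2.40, SE 0.09, limma adjusted p = 4.41e-09). Itgae, the alpha E chain (CD103) that binds E-cadherin, was at 29.7, 4.26 and 5.24 RPKM in KO and at 43.4, 46.0 and 43.2 RPKM in WT. KO library 1 lay between the other KO libraries and the WT libraries, and the log2 fold change of -2.17 (SE 0.49) had an adjusted p of 0.013, which became 0.0517 without KO library 3 and 0.0525 once Y-linked transcripts were a term of the model.

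Of the other large falls, S100a4, a calcium-binding protein of motile cells, was the most abundant in WT cells, with 60.7, 55.4 and 58.7 RPKM in KO and 291.4, 259.3 and 229.8 RPKM in WT (log2 fold change -2.13, SE 0.14, limma adjusted p = 1.16e-06). Gzmb, the cytotoxic protease granzyme B, was at 5.31, 1.86 and 3.23 RPKM in KO and at 17.5, 22.1 and 15.6 RPKM in WT (log2 fold change -2.18, SE 0.21, adjusted p = 2.33e-05). Cst7, which encodes cystatin F, an inhibitor of the proteases that activate granzymes, was at 66.6, 27.0 and 23.7 RPKM in KO and at 137.1, 115.5 and 123.2 RPKM in WT (log2 fold change -1.80, SE 0.29, adjusted p = 0.00158). For Cst7, as for Tigit, Klrg1 and Gzmb, KO library 1 was the KO library with the most RNA. Ctla2a, a protease inhibitor that resembles a cathepsin propeptide, fell by 2.29 and Penk, the precursor of enkephalins, by 1.88 on the log2 scale. Ttc39c fell by 2.84, Adap1, a GTPase-activating protein for ARF6, by 2.02, and Gsta4, a glutathione transferase, by 1.79.

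Gbp2b, an interferon-induced guanylate-binding protein, was at 25.3, 27.0 and 17.1 RPKM in KO and at 4.53, 3.19 and 5.29 RPKM in WT. Its log2 fold change of 2.17 (SE 0.19, limma adjusted p = 1.06e-05) headed the rises. Plac8, a small cysteine-rich protein of leukocytes, was at 103.2, 80 and 81.7 RPKM in KO and at 31.8, 18.5 and 16.5 RPKM in WT (log2 fold change 1.99, SE 0.26, adjusted p = 0.000314).

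Cd80, a ligand of CD28 and CTLA-4 that is best known from antigen-presenting cells, was at 14, 6.44 and 5.36 RPKM in KO and at 2.39, 0.965 and 1.47 RPKM in WT. KO library 1 was the highest (log2 fold change 1.81, SE 0.27, limma adjusted p = 0.001). Genes of the Wnt ligands Wnt10a (log2 fold change 1.68) and Wnt3 (1.38), the myosin Myo6 (1.67), Ncf1 of the phagocyte NADPH oxidase (1.65), the secreted protein Igfbp7 (1.62) and the neutral amino acid transporter Slc43a1 (1.61) rose as well. Dgat2, which makes triglycerides from diacylglycerol, was at 19.2, 14.5 and 14.6 RPKM in KO and at 4.6, 5.60 and 4.8 RPKM in WT (log2 fold change 1.5, SE 0.17, adjusted p = 0.000107). The last of the 15 rises were Lad1 (1.46), Prg4, the joint lubricant lubricin (1.41), Apobec2 (1.33), Lst1 (1.22) and the splicing regulator Mbnl3 (1.17). Apobec2 was at 64.6, 31.4 and 26.4 RPKM in KO and at 16.5, 12.0 and 15.1 RPKM in WT, and its adjusted p of 0.032 ran from 0.0663 to 0.117 without KO library 1 or any WT library.

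**Figure D2:**
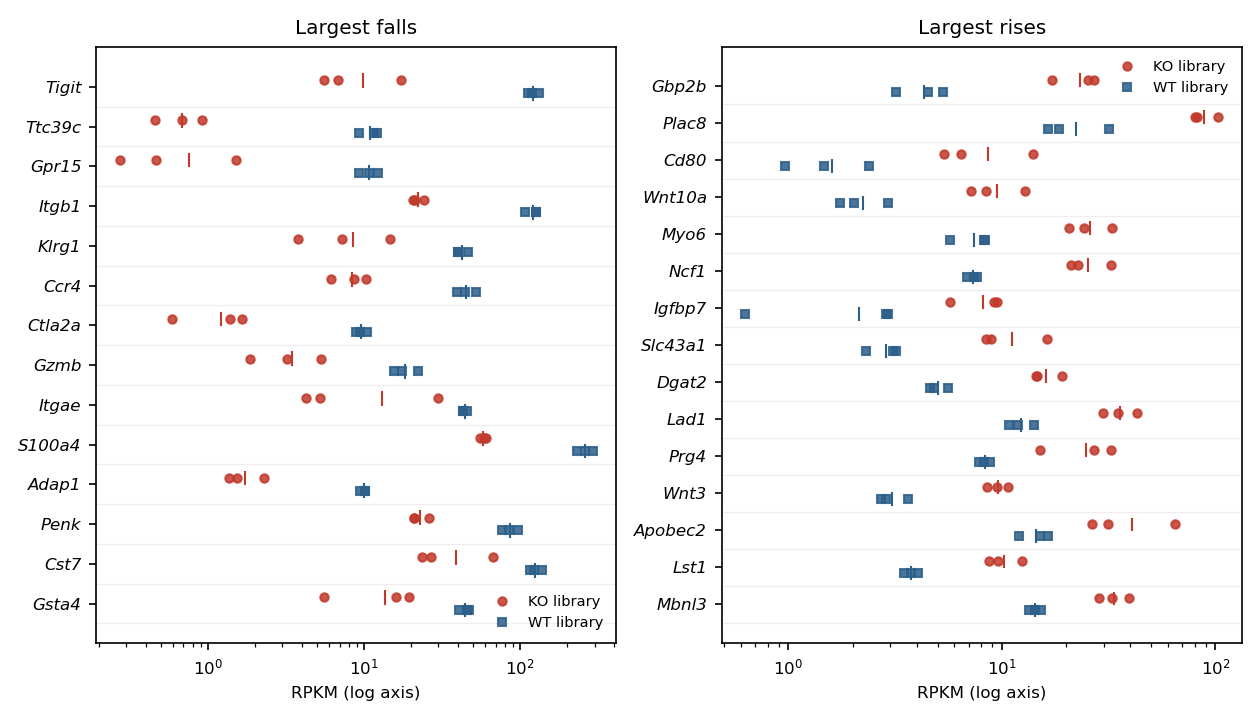
RPKM (log axis) in each unstimulated library for 14 of the 15 largest falls and for the 15 largest rises, with KO libraries as red circles in the upper row and WT libraries as blue squares in the lower row of each gene; vertical ticks mark group means (n = 3). No gene shows overlap, which the choice of genes required, and Itgae and Cst7 show 1 KO library far to the right of the others.

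Only 4 genes were switched on or off, with predicted names and the other skipped kinds of gene (below) left out of the search. In these every library of a group was at 2 RPKM or more and every library of the other at 0.5 RPKM or less. Tox2, an HMG-box transcription factor of the TOX family, was at 0.261, 0 and 0.203 RPKM in KO and at 6.29, 6.83 and 5.59 RPKM in WT (log2 fold change -2.65, SE 0.16, limma adjusted p = 9.23e-07). Slc7a10, a transporter of small neutral amino acids, was at 0.0896, 0 and 0 RPKM in KO and at 2.92, 3.19 and 2.50 RPKM in WT (log2 fold change -1.91, adjusted p = 5.28e-07). In the other direction, Spag16, a protein of the sperm axoneme, was at 3.84, 3.92 and 2.79 RPKM in KO and at 0.205, 0.283 and 0.450 RPKM in WT (log2 fold change 1.78, adjusted p = 4.17e-06). Xcr1, the receptor of the chemokine XCL1 and a marker of cross-presenting dendritic cells, was at 2.32, 2.17 and 2.44 RPKM in KO and at 0.234, 0.427 and 0.162 RPKM in WT (log2 fold change 1.38, adjusted p = 4.04e-06). Clec9a, another marker of those dendritic cells, reached at most 0.192 RPKM in any of the 6 libraries.

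The windows below show, for the genes with a log2 change of at least 1, each match to the AP-1 motif TGANTCA in the 250 bases before the start of the gene, in capitals with 12 bases on either side, because AP-1 sites are what BATF dimers bind. They are RefSeq sequence of GRCm38.p6 (the assembly of mm10), written 5′ to 3′ on the strand of the gene, and the motif reads the same on both strands apart from its middle base. The first 7 belong to genes that fell and the last 3 to genes that rose.
Gpr15 (chr16:58719053-58719083, minus strand): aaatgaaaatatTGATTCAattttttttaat
Ccr4 (chr9:114496669-114496699, minus strand): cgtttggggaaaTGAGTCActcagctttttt
Ctla2a (chr13:60936736-60936766, minus strand): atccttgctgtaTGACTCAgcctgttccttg
Gzmb (chr14:56262374-56262404, minus strand): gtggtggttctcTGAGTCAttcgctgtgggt
Cxcl10 (chr5:92348945-92348975, minus strand): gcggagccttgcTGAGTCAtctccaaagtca
Glrx (chr13:75839775-75839805, plus strand): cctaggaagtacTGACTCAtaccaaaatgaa
Havcr2 (chr11:46454719-46454749, plus strand): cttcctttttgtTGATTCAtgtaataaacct
Cd80 (chr16:38458879-38458909, plus strand): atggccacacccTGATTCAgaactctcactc
Il1rn (chr2:24336707-24336737, plus strand): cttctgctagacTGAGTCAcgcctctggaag
Fcrl1 (chr3:87376235-87376265, plus strand): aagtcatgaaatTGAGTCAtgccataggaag

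The motif lay in this window for 7 of 45 promoters of genes that fell by at least 1 on the log2 scale (15.6%) and for 3 of 33 promoters of genes that rose by as much (9.09%). It lay in 29 of 470 promoters of all genes that fell (6.17%), in 20 of 351 of those that rose (5.7%) and in 282 of 7642 of all genes tested that have a promoter entry (3.69%). These are letter matches and no measure of binding, and no test was made of the shares. Starts are those of RefSeq, which lie 74 bases from the start of the counted gene for Gzmb, 148 bases from it for Gpr15 and at it for the other genes shown. The match began 143 bases before the start of Ccr4 and 58 bases before that of Gzmb, which fell by 2.31 and 2.18 on the log2 scale. It began 42 bases before the start of Cd80, which rose by 1.81. Cxcl10 (log2 fold change -1.68), a ligand of CXCR3, Glrx (-1.39), a glutaredoxin, Il1rn (1.35), the IL-1 receptor antagonist, and the Fc receptor-like gene Fcrl1 (1.07) were named for their match, after their values were seen.

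The 250 bases before the start are given in full for the 3 largest falls and 3 largest rises with a promoter entry among genes with a mean of at least 5 RPKM, since these genes head the comparison. Capitals mark TGANTCA on either strand, and the promoters of Tigit, Itgb1, Gbp2b and Plac8 hold no match in these letters.
Tigit (chr16:43664185-43664434, minus strand): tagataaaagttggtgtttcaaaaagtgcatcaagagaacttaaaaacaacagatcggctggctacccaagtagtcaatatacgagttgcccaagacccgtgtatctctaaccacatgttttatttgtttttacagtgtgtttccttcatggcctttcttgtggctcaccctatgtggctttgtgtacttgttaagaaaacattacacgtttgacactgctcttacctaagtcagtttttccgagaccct
Gpr15 (chr16:58718873-58719122, minus strand): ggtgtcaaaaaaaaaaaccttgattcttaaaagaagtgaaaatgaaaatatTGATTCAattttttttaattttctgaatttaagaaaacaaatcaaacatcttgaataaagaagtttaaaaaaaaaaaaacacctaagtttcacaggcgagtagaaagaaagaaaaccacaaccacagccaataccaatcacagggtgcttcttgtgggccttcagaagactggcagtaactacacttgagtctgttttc
Itgb1 (chr8:128685404-128685653, plus strand): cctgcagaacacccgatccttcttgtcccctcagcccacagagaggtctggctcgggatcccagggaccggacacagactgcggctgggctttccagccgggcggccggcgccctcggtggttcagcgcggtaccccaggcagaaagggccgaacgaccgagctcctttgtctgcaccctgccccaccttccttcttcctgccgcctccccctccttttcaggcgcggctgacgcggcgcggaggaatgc
Gbp2b (chr3:142594597-142594846, plus strand): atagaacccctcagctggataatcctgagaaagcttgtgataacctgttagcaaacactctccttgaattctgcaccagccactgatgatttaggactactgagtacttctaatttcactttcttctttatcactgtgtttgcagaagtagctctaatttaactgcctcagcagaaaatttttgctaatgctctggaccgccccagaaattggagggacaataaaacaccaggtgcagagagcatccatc
Plac8 (chr5:100572206-100572455, minus strand): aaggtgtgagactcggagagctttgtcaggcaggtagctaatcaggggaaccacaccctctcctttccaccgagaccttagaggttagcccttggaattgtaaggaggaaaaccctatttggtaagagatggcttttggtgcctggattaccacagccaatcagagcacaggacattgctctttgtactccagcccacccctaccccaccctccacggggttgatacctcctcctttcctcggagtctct
Cd80 (chr16:38458683-38458932, plus strand): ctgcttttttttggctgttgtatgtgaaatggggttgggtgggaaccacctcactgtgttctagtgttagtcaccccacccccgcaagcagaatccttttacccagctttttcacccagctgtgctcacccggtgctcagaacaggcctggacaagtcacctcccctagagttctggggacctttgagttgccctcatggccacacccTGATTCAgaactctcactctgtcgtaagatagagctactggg

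Among BATF and its bZIP and IRF partners, both IRF partners of its composite elements and 1 JUN protein rose. Of 14 tested members (the list holds 19), 3 rose and 4 fell, which is 50% called beside 10.6% of all genes, with a median log2 change of -0.16. The 4 that fell include Batf itself, the deleted gene, whose call says nothing about the partners. Irf4, a partner at composite elements, was at 34.3, 28.5 and 24.3 RPKM in KO and at 19.3, 17.6 and 19.8 RPKM in WT, and Irf8 at 20, 23.6 and 22.4 RPKM in KO and at 14, 15 and 14.2 RPKM in WT. Both were higher in every KO library (log2 fold change 0.58 for each, limma adjusted p = 0.00262 for Irf4 and 0.00179 for Irf8). Jund, a JUN partner and the most abundant of the 3, was at 179.7, 165.6 and 225.4 RPKM in KO and at 138.2, 133.7 and 119.6 RPKM in WT (log2 fold change 0.53, adjusted p = 0.00841).

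Nfil3, a basic leucine zipper repressor, was at 3.99, 2.14 and 2.26 RPKM in KO and at 8.91, 6.57 and 7.23 RPKM in WT (log2 fold change -1.20, limma adjusted p = 0.00231). Maf, a factor of IL-10 expression, was at 14.2, 14.2 and 11 RPKM in KO and at 20.9, 17.6 and 18 RPKM in WT (-0.49, adjusted p = 0.0298), and Fosb fell by 0.44 (adjusted p = 0.0196). The call of Maf was lost without KO library 3 or any WT library (adjusted p from 0.0511 to 0.114), and that of Fosb without KO library 1 or WT libraries 1 or 3 (0.0533 to 0.0747). No member was called without the libraries that hold Y-linked transcripts, where Batf itself had a log2 fold change of -1.37 (adjusted p = 0.0639).

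More lineage-defining transcription factors fell than rose. Of 26 tested, 10 fell and 2 rose (46.2% called, median log2 change -0.21). Rora, a factor of tissue Treg and type 2 innate lymphoid cells, was at 0.344, 1.07 and 0.639 RPKM in KO and at 2.75, 2.95 and 2.53 RPKM in WT (log2 fold change -1.17, limma adjusted p = 0.000219). KO and WT libraries were apart, at a low level.

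Prdm1 (BLIMP-1), a repressor that marks effector Treg cells, was at 0.990, 0.938 and 0.661 RPKM in KO and at 2.31, 2.83 and 2.44 RPKM in WT (log2 fold change -0.92, limma adjusted p = 0.000396). Ahr, the aryl hydrocarbon receptor, was at 2.44, 1.55 and 1.54 RPKM in KO and at 4.32, 4.30 and 3.94 RPKM in WT (-0.88, adjusted p = 0.000479). Ikzf2 (Helios) was at 14.9, 12.9 and 10.5 RPKM in KO and at 19.4, 20.3 and 20.5 RPKM in WT (-0.63, adjusted p = 0.00448). In all 3 the groups were separate. Hif1a fell by 0.48 and Runx1 by 0.45, and Bcl6, the T follicular helper factor, by 0.94 with a call that was lost without KO libraries 1 or 3 or WT libraries 1 or 3 (adjusted p from 0.0642 to 0.0833).

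Pparg, known for the visceral fat Treg programme, rose at a low level. It was at 2.97, 2.88 and 2.44 RPKM in KO and at 0.401, 0.762 and 0.748 RPKM in WT (log2 fold change 1.21, SE 0.14, limma adjusted p = 0.00017). Eomes, a T-box factor of cytotoxic cells, was at 1.16, 2.20 and 2 RPKM in KO and at 0.631, 0.988 and 0.798 RPKM in WT (0.61, adjusted p = 0.0208), with a call that was lost without KO libraries 2 or 3 or WT libraries 1 or 3 (adjusted p from 0.0524 to 0.0809). When the libraries that hold Y-linked transcripts were left out, 1 member of the list was called higher and 2 lower.

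**Figure D3:**
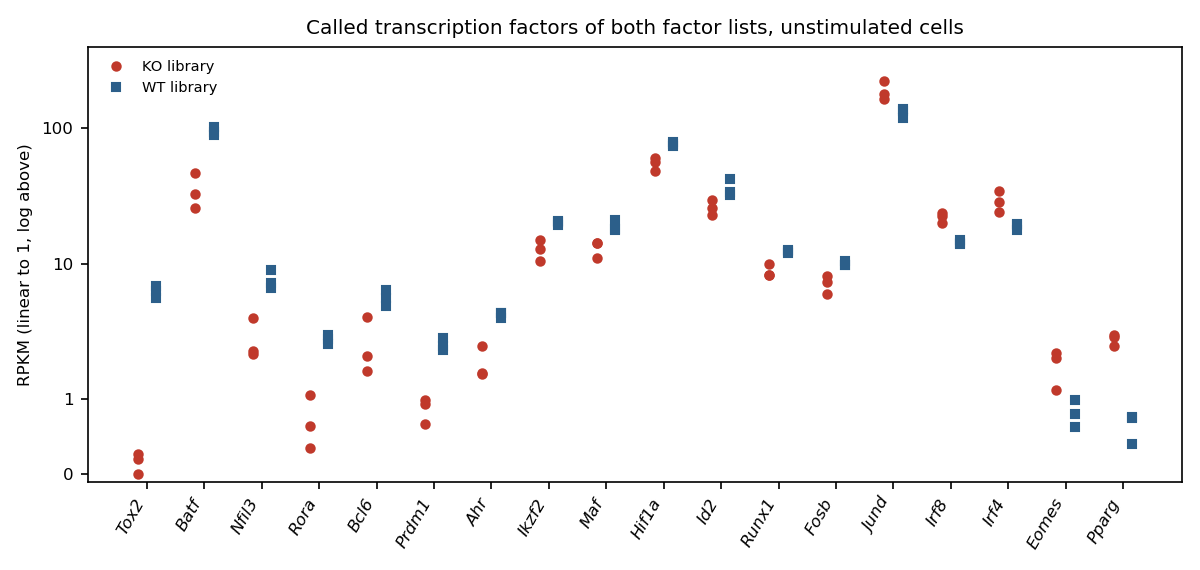
RPKM (linear to 1, log above) in each unstimulated library for called transcription factors of both factor lists, ordered by log2 fold change, with KO libraries as red circles on the left and WT libraries as blue squares on the right of each gene. The factors up to Fosb are lower and those from Jund on higher in KO, and Tox2 in KO reaches at most 0.261 RPKM.

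Foxp3, Il2ra and Ctla4, which mark Treg cells, were not called. Foxp3 was at 54.2, 66.3 and 54.7 RPKM in KO and at 74.8, 70.8 and 64.9 RPKM in WT, groups that overlapped (log2 fold change -0.26, SE 0.09, limma adjusted p = 0.0742). Without KO library 2 the fold change was called (adjusted p = 0.0148). Il2ra, the alpha chain of the IL-2 receptor, was at 154.8, 152.5 and 131.4 RPKM in KO and at 146.0, 146.1 and 144.1 RPKM in WT (0.00, SE 0.08, adjusted p = 0.985).

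Ctla4, the inhibitory receptor through which Treg cells take CD80 and CD86 from other cells, was at 165.8, 120.8 and 120.6 RPKM in KO and at 130.1, 163.9 and 115.2 RPKM in WT. Its groups overlapped fully (log2 fold change -0.01, SE 0.15, limma adjusted p = 0.984). Of 22 tested genes of Treg identity and suppression, 3 rose and 4 fell (31.8% called, median log2 change -0.04). Nrp1, neuropilin 1, fell most, with 20.2, 17.2 and 16.4 RPKM in KO and 53.0, 48.6 and 52.6 RPKM in WT (-1.47, SE 0.11, adjusted p = 1.96e-06). Itgb8, the chain that activates latent TGF-β, fell by 0.55 and the ectoenzyme Nt5e (CD73) by 0.51, and the STAT5 feedback gene Socs2 (0.68), Swap70 (0.51) and Lrrc32 (0.35), the surface anchor of latent TGF-β, rose. The calls of Nt5e (without KO library 3 or WT libraries 1 or 3, adjusted p from 0.0638 to 0.0736) and Lrrc32 (without KO library 1 or WT library 1, 0.054 and 0.0653) rested on those libraries. Without the libraries that hold Y-linked transcripts only Nrp1 of this list was called.

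Effector and tissue Treg genes were lower as a group. Of 27 tested, 18 fell and 1 rose (70.4% called), with a median log2 change of -0.79. The list was drawn up with earlier results of these libraries known, so that its direction is a description. Its members that fell included Tigit, S100a4, Klrg1, Gzmb, Itgae, Penk and Nrp1 above. Gpr55, a lipid-sensing receptor, was at 1.23, 1.55 and 1.69 RPKM in KO and at 6.50, 7.71 and 6.30 RPKM in WT (log2 fold change -1.65, SE 0.12, limma adjusted p = 1.96e-06). Il18r1, the alpha chain of the IL-18 receptor, was at 2.91, 3.57 and 3.84 RPKM in KO and at 12.0, 10.1 and 11.1 RPKM in WT (-1.45, SE 0.10, adjusted p = 1.75e-06). Both receptors had groups far apart.

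Further falls of this list were those of Cd44 (log2 fold change -0.89), the hyaluronan receptor of antigen-experienced T cells, Tnfrsf1b (-0.60), TNF receptor 2, and Lgals3 (-0.79), galectin 3. Areg (-0.57), the repair factor amphiregulin, and Fgl2 (-0.67), a soluble suppressor, were called only narrowly, and left the call without KO libraries 2 or 3 or WT libraries 2 or 3 (limma adjusted p from 0.0643 to 0.131 for Areg, also without WT library 1, and from 0.109 to 0.145 for Fgl2). Dgat2 was the member that rose. With the libraries that hold Y-linked transcripts left out, 9 members fell and 1 rose, and the median was -0.82.

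Naive and central Treg genes rose in 3 cases of 24 and fell in 0 (12.5% called, beside 10.6% of all genes, median log2 change 0.03). Without KO library 2 the same number rose and 2, Foxo1 and Foxp1, fell, and 0 were called without the libraries that hold Y-linked transcripts. Ly6c2, a surface antigen of resting T cells, was at 26.9, 23.8 and 25.5 RPKM in KO and at 13.8, 9.76 and 12.4 RPKM in WT (log2 fold change 1.03, SE 0.16, limma adjusted p = 0.00135). Ccr7, the lymph node homing receptor, was at 214.3, 205.9 and 243.8 RPKM in KO and at 172.5, 163.5 and 172.4 RPKM in WT (0.38, adjusted p = 0.0257). Klf2, which drives egress receptors, was at 135.7, 143.1 and 179.5 RPKM in KO and at 118.3, 114.2 and 112.9 RPKM in WT (0.39, adjusted p = 0.0366). None of these overlapped, but Ccr7 (adjusted p from 0.0655 to 0.0923) and Klf2 (0.0796 to 0.126) were not called without KO library 3 or any WT library. S1pr1, the egress receptor, had a log2 fold change of -0.01 (adjusted p = 0.98) and Tcf7 one of 0.09 (0.63).

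**Figure D4:**
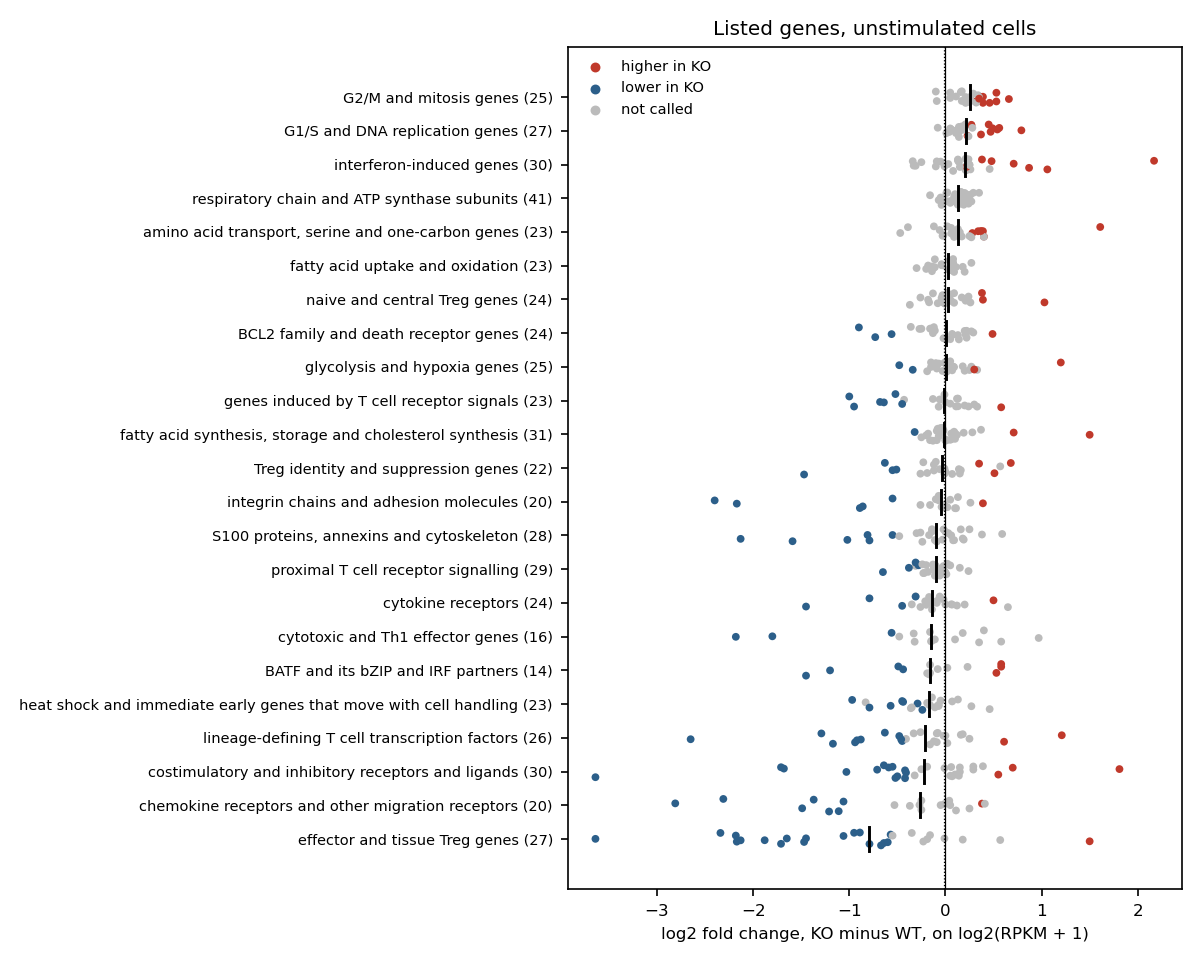
Log2 fold change of KO over WT on log2(RPKM + 1) for the tested members of the 23 gene lists (number tested in parentheses), ordered by median; red members were higher and blue members lower in KO, grey ones were not called, black bars are list medians and the dotted line is the median of all genes tested (-0.02). Effector and tissue Treg genes lie furthest to the left with a median of -0.79, and the mitosis genes furthest to the right with 0.26.

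Receptors of migration fell beyond Ccr4 and Gpr15. Of 20 tested, 7 fell and 1 rose (40% called, median log2 change -0.26), and without the libraries that hold Y-linked transcripts 5 fell and 0 rose. Ccr2, the receptor of monocyte chemoattractants, was at 6.06, 8.25 and 7.41 RPKM in KO and at 25.7, 19.7 and 21.2 RPKM in WT (log2 fold change -1.49, limma adjusted p = 1.16e-05). Ccr8, a receptor of tissue and tumour Treg cells, was at 24.5, 31.7 and 30.2 RPKM in KO and at 62.9, 66.2 and 53.3 RPKM in WT (-1.06, adjusted p = 1.44e-05). Cxcr3, the receptor of interferon-induced chemokines, was at 31.2, 21.8 and 25.2 RPKM in KO and at 57.3, 62.6 and 63.8 RPKM in WT (-1.21, adjusted p = 1.94e-05). These 3 had no overlap, and Cxcr6 (-1.11) and Ccr10 (-1.37) fell too.

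Among integrin chains and adhesion molecules 5 of 20 fell and 1 rose (30% called, median log2 change -0.05). Beside Itgb1, Itgae, Itgb8 and Cd44, Alcam, a ligand of CD6, was at 0.476, 0.825 and 0.862 RPKM in KO and at 2.06, 2.07 and 2.17 RPKM in WT (log2 fold change -0.86, limma adjusted p = 0.0024). The tetraspanin Cd9 rose by 0.39 (adjusted p = 0.0258), a call that was lost without KO libraries 1 or 3 or any WT library (0.0559 to 0.096). Only Itgb1 was called without the libraries that hold Y-linked transcripts.

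Costimulatory and inhibitory receptors and their ligands were called in 16 of 30 cases, with 13 lower and 3 higher (53.3% called, median log2 change -0.22). Icos, the inducible costimulator that sustains effector Treg cells, was at 39.1, 29.6 and 25.6 RPKM in KO and at 112.4, 114.0 and 86.8 RPKM in WT (log2 fold change -1.71, SE 0.13, limma adjusted p = 4.04e-06). Cd200r1, the receptor of CD200, was at 2.43, 3.82 and 3.08 RPKM in KO and at 11.5, 12.8 and 11.9 RPKM in WT (-1.68, adjusted p = 1.13e-05). Havcr2 (TIM-3) was at 0.834, 0.355 and 0.347 RPKM in KO and at 2.51, 2.06 and 1.65 RPKM in WT (-1.03, adjusted p = 0.00224). None of these overlapped between groups.

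Pdcd1 (PD-1) fell by 0.59, Cd96, a relative of Tigit that shares its ligand, by 0.55 and Tnfrsf9 (4-1BB) by 0.64. On the side of the ligands, Cd86 was at 36.8, 26.4 and 26.5 RPKM in KO and at 16.6, 20.3 and 16.6 RPKM in WT (log2 fold change 0.70, limma adjusted p = 0.0166), so that both ligands of CTLA-4 were higher in KO cells. The call of Cd86 was lost without KO library 1 or WT libraries 1 or 3 (adjusted p from 0.0633 to 0.0668), and 8 of the 16 called members lost the call in at least 1 fit that left out a library. Without the libraries that hold Y-linked transcripts 3 members fell and 0 rose.

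Of 24 cytokine receptors 4 fell and 1 rose (20.8% called, median log2 change -0.14). With Il18r1, the accessory chain Il18rap was lower, at 1.26, 1.95 and 1.79 RPKM in KO and 3.24, 3.42 and 4.16 RPKM in WT (log2 fold change -0.79, limma adjusted p = 0.0044). Tgfbr2, the TGF-β receptor, fell slightly with no overlap, at 41.3, 41.5 and 39.5 RPKM in KO and 51.7, 51.5 and 49.3 RPKM in WT (-0.31, adjusted p = 0.00907). Il4ra, the alpha chain of the IL-4 receptor, was at 72.2, 58.2 and 68.7 RPKM in KO and at 48.0, 46.8 and 44.8 RPKM in WT (0.50, adjusted p = 0.00413). Only 1 member, which fell, was called without the libraries that hold Y-linked transcripts.

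Components of proximal T cell receptor signalling differed little. Of 29, 4 fell and 0 rose (13.8% called, median log2 change -0.10), and all 4, Fyn (-0.31), Ubash3a (-0.28), Lcp2 (-0.38) and Themis (-0.65), lost the call in 4 or 5 of the 6 fits that left out a library (KO libraries 1 or 3 or a WT library, adjusted p from 0.0501 to 0.139). Cd3g, a chain of the receptor complex, was at 724.0, 696.1 and 711.8 RPKM in KO and at 893.4, 802.6 and 808.9 RPKM in WT (log2 fold change -0.23, limma adjusted p = 0.0505). When the libraries that hold Y-linked transcripts were left out, 0 members were called.

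Genes that T cell receptor signals induce were called lower in 6 and higher in 1 of 23 cases (30.4% called, median log2 change -0.01), and in 1 and 0 cases without the libraries that hold Y-linked transcripts. Bhlhe40, a repressor of Il10, was at 8.92, 9.52 and 7.96 RPKM in KO and at 20, 16.5 and 19.4 RPKM in WT (log2 fold change -1, limma adjusted p = 0.000167). Cd83, which stabilises class II molecules at the surface, was at 51.9, 35.1 and 31.6 RPKM in KO and at 73.6, 74.8 and 79.0 RPKM in WT (-0.95, adjusted p = 0.00188). Egr2, a restraint on effector T cells, was at 6.69, 6.82 and 5.10 RPKM in KO and at 10.6, 9.42 and 11.5 RPKM in WT (-0.68, adjusted p = 0.00629). In none of these did the groups overlap, and Irf4 was the member that rose.

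The S100 proteins and cytoskeletal genes that differed were all lower in KO cells, 6 of 28 (21.4% called, median log2 change -0.10). S100a6 was at 29.6, 25.1 and 34.5 RPKM in KO and at 100.5, 84.3 and 87.8 RPKM in WT (log2 fold change -1.59, limma adjusted p = 0.000871). S100a11 was at 109.5, 90.5 and 76.8 RPKM in KO and at 167.0, 160.1 and 155.3 RPKM in WT (-0.81, adjusted p = 0.00308), and the myosin Myo1f fell by 1.02 (adjusted p = 1.28e-05). In both S100 genes every KO library was below every WT library. Without the libraries that hold Y-linked transcripts 3 members fell.

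Cytotoxic and Th1 effector genes moved unevenly, with 3 of 16 lower and 0 higher (18.8% called, median log2 change -0.15). Against the falls of Gzmb and Cst7, Nkg7, a granule membrane protein, was at 84.7, 110.5 and 108.0 RPKM in KO and at 72.6, 63.9 and 63.6 RPKM in WT (log2 fold change 0.58, limma adjusted p = 0.0621), groups without overlap that did not pass the test. Serpinb6b, an inhibitor of granzymes, likewise had 75.5, 41.6 and 40.7 RPKM in KO and 24.7, 24.8 and 26.3 RPKM in WT (0.97, adjusted p = 0.0667). Fitted with the 6 unstimulated libraries alone, both passed (adjusted p = 0.0125 for Nkg7 and 0.0203 for Serpinb6b). When the libraries that hold Y-linked transcripts were left out, 1 member of the list fell and 0 rose.

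The proliferation genes that were called were all higher in KO cells. Of 27 genes of the G1/S transition and DNA replication, 10 rose and 0 fell (37% called, median log2 change 0.21), and of 25 mitotic genes 8 rose and 0 fell (32% called, median 0.26). E2f2, which drives S phase genes, was at 42.7, 34.7 and 35.8 RPKM in KO and at 22.8, 20.4 and 20.7 RPKM in WT (log2 fold change 0.79, SE 0.08, limma adjusted p = 5.26e-05). Cdt1, a licensing factor of replication origins, rose by 0.49 (adjusted p = 0.000969) and Tk1, thymidine kinase, by 0.56 (0.00262). Ube2c, the ubiquitin-conjugating enzyme of the anaphase-promoting complex, was at 68.9, 58.2 and 60.7 RPKM in KO and at 36.8, 36.2 and 44.5 RPKM in WT (0.66, SE 0.09, adjusted p = 0.000314), and Aurkb, a mitotic kinase, rose by 0.53 (0.00867). The groups of E2f2 and Ube2c were apart. Fitted with the 6 unstimulated libraries alone, 3 replication and 2 mitotic genes rose, and without the libraries that hold Y-linked transcripts 2 and 0, with medians of 0.26 and 0.21.

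Metabolic genes showed few calls. Respiratory chain and ATP synthase subunits had 0 of 41 called by limma or by limma-voom on reads, with a median log2 change of 0.13. At an unadjusted limma p under 0.05, 14 were higher and 1 lower, beside 2645 of all 9895 genes tested in either direction. The subunit Uqcrq was closest to the threshold at 196.2, 176.1 and 248.6 RPKM in KO and 157.3, 161.2 and 162.1 RPKM in WT (log2 fold change 0.35, limma adjusted p = 0.0544), and Sdha, of complex II, had a log2 fold change of -0.16 (0.0865). Without KO library 2, 5 subunits rose and 1 fell, among them Uqcrq (adjusted p = 0.0141) and Sdha (0.0251), and with median-ratio rescaling 2 rose. Fatty acid uptake and oxidation had 0 of 23 called by either (median 0.03), with 1 higher and 2 lower at an unadjusted p under 0.05. Glycolysis and hypoxia genes had 2 higher and 2 lower of 25 (16% called, median 0.01), with the glucose transporter Slc2a3 at 23.8, 23.9 and 26.5 RPKM in KO and 31.9, 30.3 and 32.6 RPKM in WT (-0.34, adjusted p = 0.00947, and 0.0563 with Y-linked transcripts as a term of the model). Neither glycolytic gene that rose was called with the 6 unstimulated libraries fitted alone or without WT library 1, 4 rose without KO library 2 or with median-ratio rescaling, and 0 genes of these 3 lists were called without the libraries that hold Y-linked transcripts.

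Lipid synthesis and storage genes had 2 higher and 1 lower of 31 (9.68% called, median log2 change -0.02), so that Dgat2 stood out in a list near the background. Scd2, a fatty acid desaturase, was at 81.7, 73.0 and 67.2 RPKM in KO and at 46.3, 47.7 and 40.8 RPKM in WT (log2 fold change 0.71, SE 0.10, limma adjusted p = 0.000792). Genes of amino acid transport and of serine and one-carbon metabolism rose in 6 of 23 cases and fell in 0 (26.1% called, median 0.13). Shmt2, the mitochondrial serine hydroxymethyltransferase, was at 76.6, 70.1 and 71.3 RPKM in KO and at 56.1, 60.4 and 52.2 RPKM in WT (0.37, adjusted p = 0.00321), and Slc7a5, a chain of the large neutral amino acid transporter, at 40.5, 37.4 and 40.0 RPKM in KO and 28.8, 32.5 and 27.2 RPKM in WT (0.40, adjusted p = 0.00359). Scd2, Shmt2 and Slc7a5 had no overlap between groups. Without the libraries that hold Y-linked transcripts 1 lipid gene and 2 amino acid and one-carbon genes rose.

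Interferon-induced genes were higher where they were called, 7 of 30 against 0 lower (23.3% called, median log2 change 0.20). After Gbp2b, the immunity-related GTPase Igtp was at 242.8, 251.9 and 235.5 RPKM in KO and at 182.9, 171.2 and 168.2 RPKM in WT (log2 fold change 0.48, SE 0.06, limma adjusted p = 0.00017). Iigp1, another such GTPase, was at 65.7, 59.8 and 42.2 RPKM in KO and at 29.9, 32.1 and 27.1 RPKM in WT (0.87, adjusted p = 0.00383). Gbp2 was at 132.8, 115.3 and 84.1 RPKM in KO and at 65.7, 67.8 and 64.9 RPKM in WT (0.71, adjusted p = 0.0107). KO library 3 was the lowest of the KO libraries for each of these GTPases, and still above every WT library. With Y-linked transcripts as a term of the model the adjusted p of Gbp2 was 0.0817, and without the libraries that hold them 2 members rose.

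Heat shock and immediate early genes, which change with cell handling, were lower in KO cells in 7 of 23 cases and higher in 0 (30.4% called, median log2 change -0.17), and 0 were called without the libraries that hold Y-linked transcripts or with the 6 unstimulated libraries fitted alone. Hsph1, a heat shock protein, was at 16.4, 21.8 and 13.5 RPKM in KO and at 46.2, 23.7 and 24.3 RPKM in WT, with WT library 1 far above the others (log2 fold change -0.79, limma adjusted p = 0.026, and 0.0616 without WT library 1). All 7 calls were lost in at least 3 of the 6 fits that left out a library. Among BCL2 family and death receptor genes 3 of 24 fell and 1 rose (16.7% called, median 0.01), and 1 fell without the libraries that hold Y-linked transcripts. Bcl2a1d, a survival gene with near-identical copies whose reads the counting could split, was at 18.1, 23.0 and 19.0 RPKM in KO and at 37.0, 37.8 and 39.4 RPKM in WT (-0.90, adjusted p = 2.96e-05), and Bmf, a pro-apoptotic member, fell by 0.73 (0.00156). The part of handling in the results was not tested. Of the lists with 0 limma calls in a direction, an unadjusted p under 0.05 was reached in that direction by 4 cytoskeletal, 2 cytotoxic, 1 amino acid or one-carbon and 1 interferon-induced gene, of which limma-voom called 1 cytoskeletal and 1 cytotoxic gene. In the naive, T cell receptor signalling, replication, mitosis and heat shock lists it was reached by 0. Over all 9895 genes tested, 2645 had an unadjusted limma p under 0.05 in either direction.

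The libraries carried the transcripts of T cells in both genotypes. The 7 T cell markers in the table summed to 2549.1 to 2704.8 RPKM in KO and 2875.0 to 3051.7 RPKM in WT (1 of 7 called, Cd28, lower), and the 8 Treg markers to 1280.4 to 1503.6 RPKM in KO and 1386.5 to 1473.0 RPKM in WT (Lrrc32 higher and Ikzf2 lower). The call of Cd28 was lost without KO libraries 1 or 3 or WT library 3 (limma adjusted p from 0.0587 to 0.0863). Transcripts of other cells were present at lower sums. B cell markers (11 in the table) summed to 47.5 to 98.7 RPKM in KO and 42.4 to 50.3 RPKM in WT. The highest value was in KO library 1, where Cd79b was at 65.8 RPKM. Bank1 alone of 7 tested was called, higher (log2 fold change 0.65). Its call was lost without WT libraries 1 or 3 (limma adjusted p from 0.051 to 0.0705). It was also lost with the 6 unstimulated libraries fitted alone, with a pseudocount of 0.1 and with Y-linked transcripts as a term of the model.

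Markers of plasma cells summed to 96.8 to 126.7 RPKM in KO and 149.4 to 200.5 RPKM in WT, and Jchain (log2 fold change -1.36, limma adjusted p = 0.000654) and Derl3 (-0.95, adjusted p = 0.00127) were lower in KO. Myeloid markers summed to 32.3 to 53.2 RPKM in KO and 35.8 to 58.5 RPKM in WT, with 5 of 11 tested lower and 0 higher. Cebpa, a transcription factor of myeloid cells, was at 0.579, 0.367 and 0.272 RPKM in KO and at 4.46, 5.06 and 3.44 RPKM in WT (-1.91, adjusted p = 1.25e-06), and C1qb fell by 0.97 (adjusted p = 0.000792). C1qc, C1qa and Cd68 were the other members called lower. The calls of C1qa (without WT libraries 1 or 2, limma adjusted p = 0.108) and Cd68 (without KO libraries 1 or 3 or WT libraries 1 or 3, 0.0542 to 0.16) were lost. Of the members too low to be tested, Cd14 reached at most 0.13 RPKM and Fcgr1 0.136 RPKM in any library.

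Dendritic cell markers summed to 295.2 to 406.0 RPKM in KO and 269.5 to 303.9 RPKM in WT, mostly from Cd74 and Bst2, and Xcr1 alone of 7 tested was called. Markers of NK and innate lymphoid cells summed to 15.4 to 27.5 RPKM in KO and 22.7 to 29.8 RPKM in WT, with Klra4 and Klra8 listed at 0, and Eomes alone was called. The 2 CD8 T cell markers summed to 15.6 to 18.1 RPKM in KO and 15.2 to 16.9 RPKM in WT, with Cd8a at most 0.642 RPKM. Conventional CD4 T cell markers summed to 259.1 to 324.7 RPKM in KO and 274.0 to 287.4 RPKM in WT, and Il2 reached at most 0.16 RPKM. Cd40lg alone of 4 tested was called, lower in KO. That call was lost without KO libraries 1 or 3 or any WT library (limma adjusted p from 0.0563 to 0.083). Erythroid markers summed to 2.79 to 5.26 RPKM in KO and 4.50 to 9.55 RPKM in WT with 4 of 6 listed at 0, and stromal, endothelial and epithelial markers to 36.7 to 50.5 RPKM in KO and 41.3 to 42.7 RPKM in WT, of which Epcam fell by 0.95. The part of other cell types in the results was not tested. Cd80, Cd86 and Ncf1, which antigen-presenting cells also express, were highest in KO library 1, like the B cell sum. So were the rises of Plac8, Myo6, Slc43a1, Dgat2, Prg4, Apobec2, Lst1 and Mbnl3. Gbp2b and Lad1 were highest in KO library 2, and Wnt10a, Igfbp7 and Wnt3 in KO library 3. Irf8 was lowest in KO library 1 among KO libraries, and Cd83, which fell by 0.95, was highest there among them. Of the 455 genes called higher, 14.5% had KO library 1 as the KO library nearest the WT mean. The share was 50.3% for KO library 2 and 35.2% for KO library 3. Among genes not called the shares were 29.1%, 46.5% and 24.4% for KO libraries 1, 2 and 3.

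After stimulation 1668 of the same genes (16.9%) differed between KO and WT cells, 756 higher (7.64%) and 912 lower (9.22%). Of the 455 genes higher at rest 145 were also called higher after stimulation and 6 lower, and of the 597 lower at rest 231 were also called lower and 15 higher. The difference between the states was itself called for 386 genes (3.9%). Among genes that rose at rest it was called for 53, of which 50 had a higher log2 fold change at rest than after stimulation. Among genes that fell at rest it was called for 109, of which 93 had a lower log2 fold change at rest. These counts compare signed values and not sizes, and choosing genes by their call at rest favours this direction.

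Itgb1 and Tigit had a difference at rest that was smaller after stimulation, with Tigit the largest of the named genes by this measure. Itgb1 averaged 39.2 ± 0.69 RPKM in stimulated KO cells and 42.3 ± 4.39 RPKM in stimulated WT cells (SD, n = 3 each), with a log2 fold change of -0.10 (limma adjusted p = 0.459). Tigit averaged 90.3 ± 11.8 RPKM in stimulated KO cells and 135.9 ± 14.1 RPKM in stimulated WT cells, with a log2 fold change of -0.59 (adjusted p = 0.143). The difference at rest minus that after stimulation was -2.30 for Itgb1 (adjusted p = 5.82e-07) and -3.05 for Tigit (adjusted p = 0.000579), and without the libraries that hold Y-linked transcripts that of Tigit was not called (adjusted p = 0.13). Ttc39c (-2.84 at rest and -3.55 after stimulation), Klrg1 (-2.34 and -2.61) and Ctla2a (-2.29 and -2.34) were called lower in both states, and the difference between states was not called for them.

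**Figure D5:**
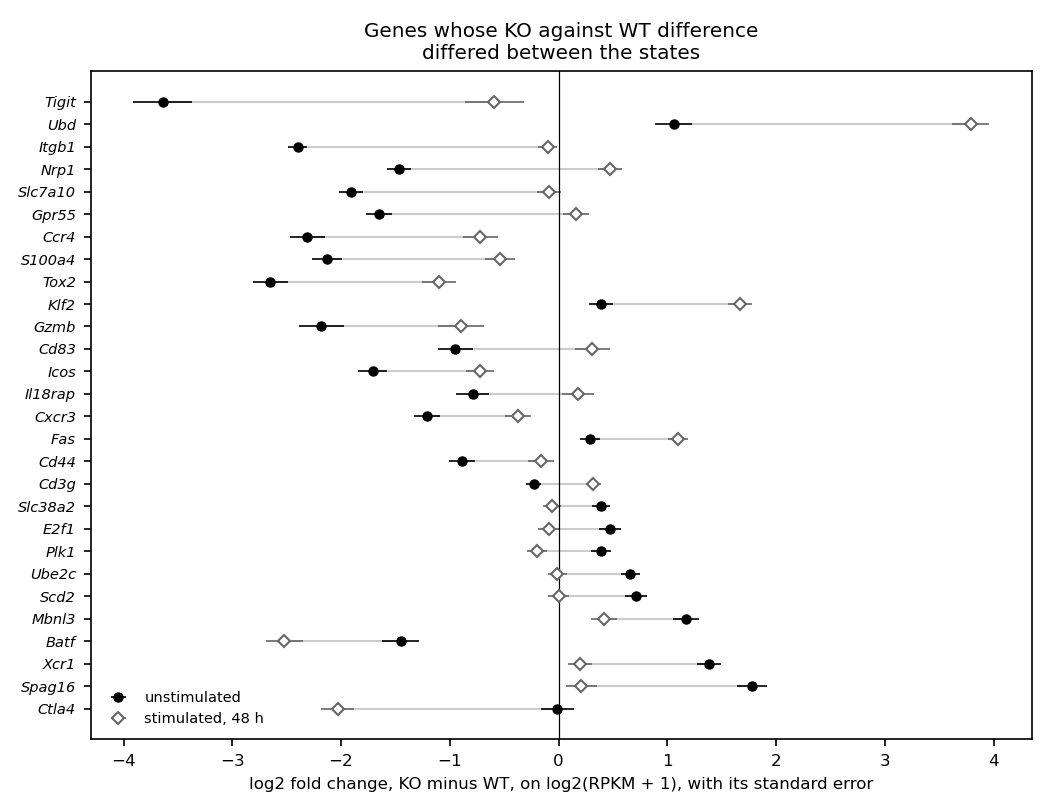
Log2 fold change of KO over WT on log2(RPKM + 1), with its standard error from limma, in unstimulated cells (filled circles) and after 48 h of stimulation (open diamonds) for the 28 named genes whose difference between the states had an adjusted p under 0.05. Tigit and Itgb1 lie far to the left only at rest, and Ctla4 lies near 0 at rest and at -2.03 after stimulation.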

How the data were processed

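RPKM values were made by the authors and deposited as 1 table of all genes and libraries. Per the submitters' processing notes the build is mm10 and FastQC, STAR, featureCounts, Subread and DESeq2 were used, in roles and versions that are not stated. Per the labels' protocols, libraries were stranded and made from polyadenylated RNA (600 ng). How strand and reads with several matches were treated in counting is not given in the sources. RPKM times exon length gave whole reads for 100% of values (within 0.01), and the depth is the sum of these reads. Of 24421 entries, 27 carry a date in place of a symbol (0.251% to 0.284% of reads in unstimulated libraries) and were left out, and 54 symbols lie on more than 1 chromosome. Columns not used numbered 0. Replicates differed by more than counting error, so none was taken as a duplicate.

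limma 3.58.1 (R 4.3.3, mean trend) was run on log2(RPKM + 1) of all 12 libraries with a mean per group, which leaves 8 residual degrees of freedom. The contrasts were KO minus WT at rest, the same after stimulation, and the first minus the second. P-values were adjusted by Benjamini-Hochberg over 9895 genes, with a threshold of 0.05. limma-voom on the recovered reads was an alternative, and DESeq2 and edgeR were not run. On simulated data for the contrast at rest (9873 genes), 20% of genes changed 1.25-fold, 86% changed 1.5-fold and 100% changed 2-fold or 4-fold were recovered, with 13 calls among 9673 unchanged genes. The simulation gave every gene and library the same spread beyond counting error and changed no gene of the lowest levels. It did not copy the wider spread of the KO libraries (median SD 0.138, against 0.0904 in WT), so these rates may not carry over to the data. The 19 alternatives covered samples, pseudocount, filter, scaling, test, replicate block, libraries left out and Y-linked transcripts.

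The members, the 23 gene lists and the 11 marker lists were chosen with earlier results of these data known. Named genes are 6 fixed ones, the 15 largest rises and 15 largest falls with a mean of at least 5 RPKM and no overlap, genes on or off between 2 and 0.5 RPKM, and, from each list, the 5 members with the lowest adjusted p. Predicted names, Y-linked genes, Xist and receptor segments were skipped. Other list and marker members were named after their values were seen. The text gives part of the named genes, and some are not reported here. A gene called in neither of 2 fits counted as having the same call. Promoters are RefSeq sequence of GRCm38.p6.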

Additional observations from a re-analysis of the deposited data

Results flagged for a closer look

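For 28 of the 132 named genes the KO minus WT difference in unstimulated cells differed from that in stimulated cells in limma's test of the difference itself (adjusted p under 0.05). The values below are the log2 fold change at rest minus that after stimulation, and no explanation was tested for any of them. In 22 of the 28 the difference was larger at rest.

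Genes that were lower in KO cells at rest and less so, or not, after stimulation were Tigit (-3.05), Itgb1 (-2.30), Nrp1 (-1.94), Slc7a10 (-1.82), Gpr55 (-1.81), Ccr4 (-1.60), S100a4 (-1.59), Tox2 (-1.55), Gzmb (-1.28), Cd83 (-1.26), Icos (-0.99), Il18rap (-0.97), Cxcr3 (-0.84) and Cd44 (-0.73). Nrp1 was called higher in stimulated KO cells, at 7.11 RPKM against 4.85 RPKM in stimulated WT cells. Cd3g (-0.55), not called at rest, was called higher after stimulation. S100a4 was at 2.47 RPKM in stimulated KO cells and 4.11 RPKM in stimulated WT cells, and Tox2 at 0.146 RPKM and 1.5 RPKM, low levels at which the log2(RPKM + 1) scale understates a difference.

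Genes that were higher in KO cells at rest and less so, or not, after stimulation were Spag16 (1.57), Xcr1 (1.19), Mbnl3 (0.75), Scd2 (0.71), Ube2c (0.67), Plk1 (0.59), E2f1 (0.55) and Slc38a2 (0.45). Some genes of both directions were near 0 in stimulated cells. Spag16 averaged 0.496 RPKM in stimulated KO and 0.3 RPKM in stimulated WT cells, Xcr1 0.229 and 0.0729 RPKM, and Slc7a10 0 and 0.0632 RPKM.

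Larger differences after stimulation were found for Ctla4 (2.02), at 51.0 RPKM in stimulated KO cells and 212.6 RPKM in stimulated WT cells, and for Batf itself (1.08). Ubd (-2.73) was at 19.3 RPKM in stimulated KO cells and 0.443 RPKM in stimulated WT cells, Klf2 (-1.28) at 26.0 RPKM and 7.51 RPKM, and Fas (-0.81) at 15.5 RPKM and 6.64 RPKM.

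Some of these calls depend on the scale, the model or single libraries. The losses listed here leave out the fit without the libraries that hold Y-linked transcripts, which keeps 1 WT library per state. Most calls of a difference between states over all genes were lost in it, as given below. In that fit the value was -1.53 for Ccr4, -1.05 for Klf2, -1.72 for Gpr55, -0.72 for Icos, -0.74 for Cxcr3 and -1.41 for Cd83. The difference between states was not called with limma-voom on reads for Xcr1, Slc7a10, Tox2 and Ubd, or with a pseudocount of 0.1 for Tox2. With the replicate block across genotypes and states it was not called for Gzmb, E2f1 and Slc38a2, with Y-linked transcripts as a term or no mean trend for E2f1 and Slc38a2, and with no filter on low values for Batf, Mbnl3, Gzmb, Cd44, Il18rap, E2f1 and Slc38a2. The difference between states was not called without WT library 1 for Mbnl3, Gzmb, Cd44 and Slc38a2. It was not called without WT library 2 for Batf, Gzmb, Cd44, E2f1, Plk1 and Slc38a2. It was not called without WT library 3 for Batf, Mbnl3, Gzmb, Cd44, Il18rap, E2f1, Plk1, Scd2 and Slc38a2, without KO library 1 for E2f1 and Slc38a2, without KO library 2 for Cd44 or without KO library 3 for E2f1.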

How the results depend on the processing

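No gene called in the reported fit changed sign in any of the 19 alternatives. The 455 genes higher and 597 lower became 225 and 362 with the 6 unstimulated libraries fitted alone, of which 216 and 349 were among the reported ones. Leaving out 1 library gave 245 to 598 higher and 332 to 878 lower. The lowest higher counts were 245, 258 and 299 without WT library 3, WT library 1 and KO library 1, and the lowest lower counts were 332 and 333 without WT libraries 3 and 1. Without the libraries that hold Y-linked transcripts 45 and 63 were called, 44 and 62 of them reported ones. That fit has 1 WT library per state, assumed to vary like the others, and of 110 called named genes 68 lost the call while 107 kept a log2 fold change within 1.5 times of the reported one. The 386 genes whose difference differed between states became 22 in that fit and 178 to 493 when 1 library was left out (178, 233 and 244 without WT libraries 3, 1 and 2). Other filters, pseudocounts, scaling, limma-voom (393 and 648), no trend and a term for Y-linked transcripts (340 and 403) stayed within 1.5 times.

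Library numbers did not pair KO with WT libraries (correlations of deviations 0.0629, -0.127 and 0.0522). With the replicate block across genotypes and states 411 genes were higher and 519 lower, and with the block nested in genotype 452 and 600. Between states, KO libraries of the same number deviated together (0.285, 0.189 and 0.112), WT libraries less so (0.0472, 0.115 and 0.0326), and Y-linked transcripts were in WT libraries 1 and 2 of both states. The 386 genes became 299 with the first block and 493 with the nested one. Of the 110 called named genes, 82 kept the call in every alternative other than the fit without the libraries that hold Y-linked transcripts, and 22 lost it in at least 1 fit that left out a library. The smallest changes simulated were mostly not detected with 3 libraries a group.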
